A study of Mus musculus with 6 samples.

Results

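The miR-181 family supplied the most abundant mature miRNA of the mouse kidney inner medulla in these libraries, miR-181a-5p. The 7 family arms described here were taken by name from the 1081 entries of the deposited table: mmu-miR-181a-5p, mmu-miR-181b-5p, mmu-miR-181c-5p and mmu-miR-181d-5p from the 5′ side of the hairpins, and mmu-miR-181a-1-3p, mmu-miR-181a-2-3p and mmu-miR-181c-3p from the 3′ side. The prefix, which marks the mouse, is left out below. The family was chosen by a measured value, the share of reads: miR-181a-5p took 43.3% to 66.8% of the miRNA reads of a library. Its level and its share of reads are therefore given as a description, without a test. All 7 arms were measured well above the filter on low values, the least abundant at a mean of 185 normalized reads over the 6 libraries.

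The small RNA libraries were made from total RNA of kidney inner medulla. DicerAQP2Cre+ mice (n = 3), 1 month old, lack Dicer1 in cells that express AQP2, the vasopressin-regulated water channel found in principal cells of the collecting duct. Their controls (n = 3) were also 1 month old, and the labels do not give their alleles. The tissue also holds cells that do not express aquaporin-2, and in such a bulk sample fewer cells of a type and less RNA per cell cannot be told apart. The knockout columns carry the short name CK, read as conditional knockout, so every direction below rests on that reading. Depth was 2934851 to 7614853 reads assigned to miRNAs per library. The miR-200 family arms that mark collecting duct and other epithelium were present in every library, 5 of 5. Their sum was 7133 to 10776 normalized reads in DicerAQP2Cre+ libraries and 16704 to 17708 in controls. DicerAQP2Cre+ replicate 3 stood apart from the other knockout libraries for several family members, whose values are given with and without it.

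Dicer, an RNase III enzyme, cuts the loop from a precursor hairpin and leaves a duplex of a 5p and a 3p arm. One arm is loaded into an Argonaute protein and guides it to messenger RNAs, mainly through its seed, bases 2 to 8, while the other arm is mostly degraded. The miR-181 family is best known in mice from lymphocytes, where miR-181a tunes the sensitivity of developing T cells to antigen, and miR-181b has been described in endothelium as a brake on NF-κB signalling.

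The mature sequences show how the 7 arms group by seed. They are from RefSeq (GRCm38.p6), written 5′ to 3′ with the seed in capitals, and all 7 names matched.
miR-181a-5p: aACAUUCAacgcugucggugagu
miR-181b-5p: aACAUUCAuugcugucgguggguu
miR-181c-5p: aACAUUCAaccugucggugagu
miR-181d-5p: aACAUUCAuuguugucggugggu
miR-181a-2-3p: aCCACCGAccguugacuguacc
miR-181a-1-3p: aCCAUCGAccguugauuguacc
miR-181c-3p: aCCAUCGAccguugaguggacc
The 4 5p arms share the seed ACAUUCA and differ after it. Of the 919 entries of the table with a RefSeq mature sequence, these 4 were the ones that carried it. miR-181a-1-3p and miR-181c-3p share a second seed and miR-181a-2-3p has a seed of its own, and no other entry with a sequence carried either. Counted from 1 at the 5′ end, miR-181a-2-3p differs from miR-181a-1-3p at C5U and C16U, the first of these inside the seed. miR-181a-5p and miR-181d-5p differ at A9U, C10U, C12U and A21G. miR-181c-5p is 1 edit from miR-181a-5p over its whole length, and miR-181b-5p is 2 edits from miR-181d-5p. How the authors' counting treated reads with a mismatched, missing or extra base is not given in the sources used here. The far smaller count of miR-181c-5p is uncertain to that extent.

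The family comes from 6 hairpin genes in 3 pairs. In GRCm38.p6, Mir181a-1 (chr1:137966455-137966541) and Mir181b-1 (chr1:137966639-137966718) lie 97 bases apart on the plus strand, within an exon of the long noncoding RNA gene A430106G13Rik in GENCODE M21. Mir181a-2 (chr2:38852735-38852810) and Mir181b-2 (chr2:38853830-38853918) lie 1019 bases apart on the plus strand, inside the gene Nr6a1, which runs on the opposite strand. Mir181d (chr8:84178716-84178787) and Mir181c lie on the minus strand of chromosome 8 inside an intron of Nanos3, on the same strand. The submitters' notes name mm9, but the deposited table holds no coordinates. The hairpins of Mir181a-1 and Mir181a-2, with both mature arms in capitals, show why the 3p arms are informative.
Mir181a-1: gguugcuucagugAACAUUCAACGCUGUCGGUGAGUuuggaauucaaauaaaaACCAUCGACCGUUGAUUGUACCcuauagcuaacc
Mir181a-2: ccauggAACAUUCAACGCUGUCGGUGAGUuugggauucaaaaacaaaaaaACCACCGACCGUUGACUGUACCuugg
Both hairpins hold the same miR-181a-5p, so its reads cannot be assigned to 1 of them. The 3p arms differ and can be assigned. The same holds for miR-181b-5p, which comes from Mir181b-1 and Mir181b-2.

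miR-181a-5p, the dominant arm, stood at 3598297, 3842608 and 3387683 normalized reads in DicerAQP2Cre+ replicates 1 to 3, and at 2754247, 2332125 and 2064259 in control replicates 1 to 3. Normalized reads are read counts divided by 1 size factor per library. Every DicerAQP2Cre+ library lay above every control library. The means were 3609529 ± 227671 in DicerAQP2Cre+ and 2383544 ± 347856 in control libraries (SD, n = 3 each). In DicerAQP2Cre+ libraries miR-181a-5p took 63.9%, 66.8% and 58.2% of reads, and in controls 52.8%, 47.8% and 43.3%. The exact (Clopper-Pearson) 95% binomial interval of each share was narrow, 66.8% to 66.9% in the shallowest library. It covers counting error only. Reads of all other entries numbered 973942 to 2750676 in the DicerAQP2Cre+ libraries and 2791103 to 3238915 in the controls, counts that also follow the depth of each library. The next most abundant entries were far below it. miR-125a-5p averaged 184226 ± 44010 normalized reads in DicerAQP2Cre+ libraries and 237775 ± 31796 in controls, 19.6-fold and 10.02-fold under miR-181a-5p. let-7c-5p was 17.1-fold and 14.5-fold under it, miR-10a-5p 24.2-fold and 11.1-fold, and miR-92a-3p 25.4-fold and 10.9-fold. A small RNA read stands for 1 molecule whatever its length, and the members are 22 to 24 bases long. Differences between miRNAs in ligation and amplification still enter such comparisons of levels.

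**Figure D1:**
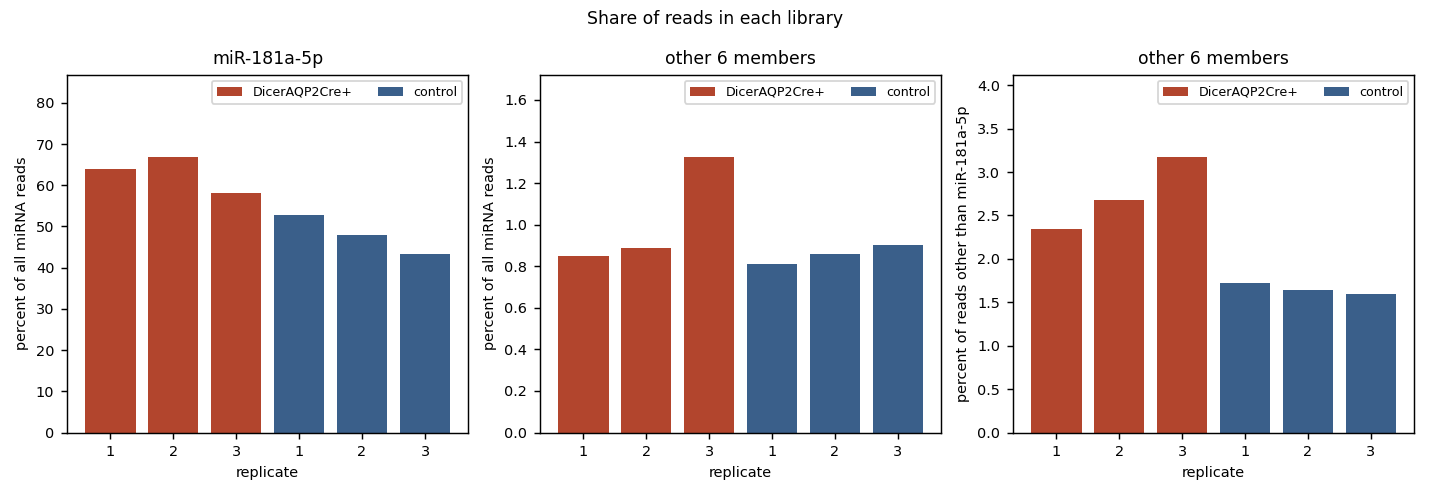
Percent of reads in each library (DicerAQP2Cre+ and control replicates 1 to 3) for miR-181a-5p out of all miRNA reads, for the other 6 members out of all miRNA reads, and for the other 6 members out of reads other than miR-181a-5p. miR-181a-5p took 58.2% to 66.8% in DicerAQP2Cre+ and 43.3% to 52.8% in control libraries, and in the right panel 2.34% to 3.17% lies above 1.59% to 1.72%.

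Across all entries, limma on log2(value + 1) called 39 of 461 tested entries at a Benjamini-Hochberg adjusted p under 0.05, 8.46%, of which 16 were higher in DicerAQP2Cre+ libraries, 3.47%. Of the 7 members limma called 0, and 3 had an unadjusted p under 0.05, against 129 of all 461 entries. On the recovered whole reads edgeR called 1 member of 7, as higher (42 of 461 entries called, 9.11%, and 4.12% called higher). DESeq2 called 2 of 7, both as higher (60 of 461 entries called, 13.0%, and 6.29% called higher). All 7 members had a log2 fold change above 0 in limma, against 228 of 461 entries (49.5%), though those of miR-181a-2-3p and miR-181d-5p were below 0 with libraries scaled to equal totals. Their median was 0.38, beside -0.01 over all tested entries. In 3 members the libraries of the genotypes did not overlap, all 3 with the DicerAQP2Cre+ libraries higher, against 15.6% of all tested entries with that pattern and 33.6% without overlap in either direction.

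For miR-181a-5p the log2 fold change was 0.61 ± 0.18 (SE), or 1.52-fold, with a 95% interval of 1.16-fold to 2.005-fold. It did not pass in limma (adjusted p = 0.0641). It passed in edgeR (log2 fold change 0.66, adjusted p = 0.0431) and in DESeq2 (0.64, adjusted p = 0.0283), and in all 3 tools without DicerAQP2Cre+ replicate 3 (limma 0.65, adjusted p = 0.0432). Without any other single library it passed in none of the 3 tools, with log2 fold changes between 0.51 and 0.75 and the highest adjusted p, 0.298, in DESeq2. The size of the difference for miR-181a-5p, as for other entries, depends on the scaling between libraries. With equal library totals its log2 fold change was 0.39 (limma adjusted p = 0.177), and the median of all entries moved to -0.21. With libraries scaled to equal sums of all other entries it was 0.89 (adjusted p = 0.0241), and the median moved to 0.25. Another scaling shifts all entries nearly alike, so relative to the median entry it was 0.62 with the deposited scaling, and close to that with both others by construction. These scalings also moved the split of calls over all entries, to 14 higher and 48 lower with equal totals (22.6% higher) and 36 higher and 14 lower with equal sums of the others (72.0%), against 16 and 23 (41.0%). Summed normalized reads of all other entries were 2034825, 1908542 and 2429661 in DicerAQP2Cre+ libraries and 2460472, 2545993 and 2701168 in controls, so the genotypes did not overlap in that sum either.

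**Figure D2:**
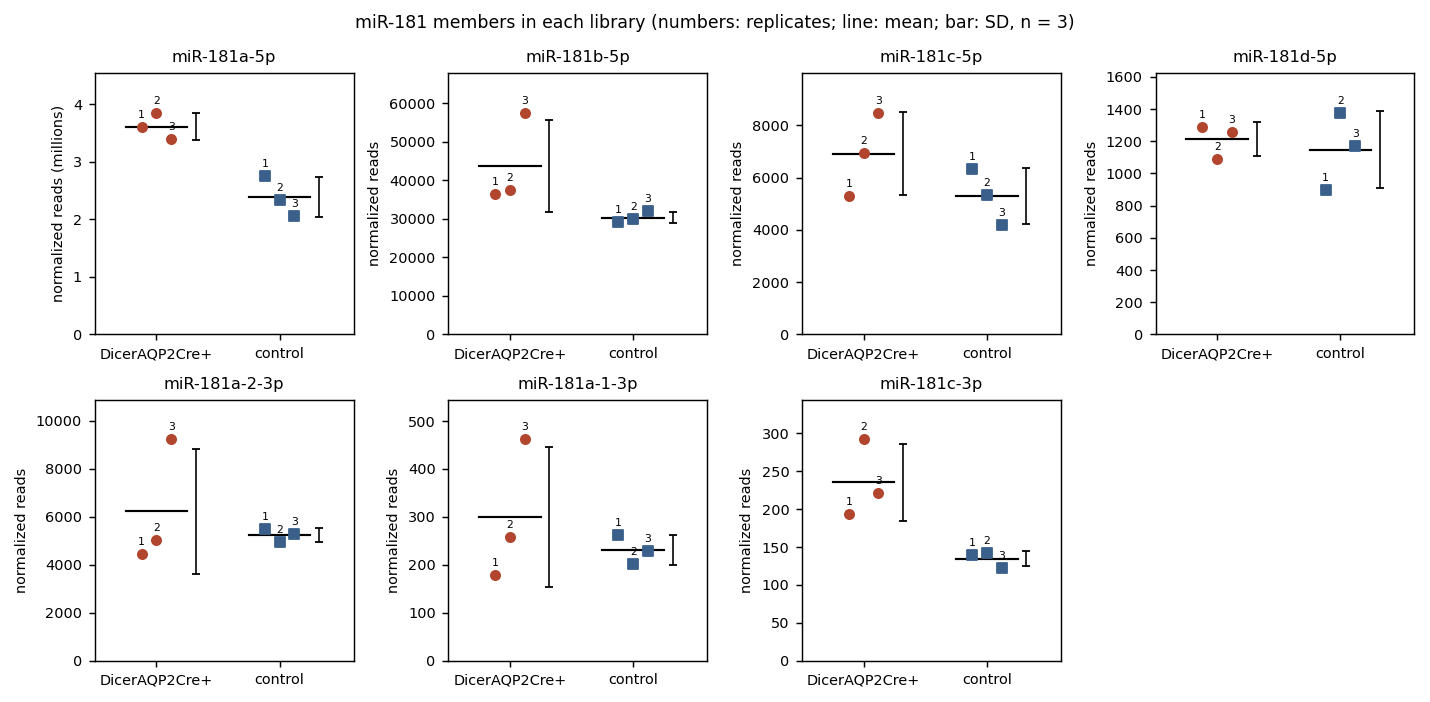
Normalized reads (axes from 0, miR-181a-5p on its own larger scale) of the 7 members in each library, DicerAQP2Cre+ left of control, with the mean as a line and the SD as a bar (n = 3). The genotypes do not overlap for miR-181a-5p, miR-181b-5p and miR-181c-3p, and DicerAQP2Cre+ replicate 3 is the highest library for miR-181b-5p, miR-181c-5p and both miR-181a 3p arms.

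miR-181b-5p, which shares the seed and is made from the hairpins next to those of miR-181a-5p, was the second member by level. It had 36326, 37444 and 57434 normalized reads in DicerAQP2Cre+ replicates 1 to 3, and 29161, 29828 and 32006 in control replicates 1 to 3. The genotypes did not overlap, and DicerAQP2Cre+ replicate 3 was far above the other libraries of its group. Its log2 fold change was 0.50 ± 0.21 (1.41-fold, 95% interval 1.02 to 1.95, limma adjusted p = 0.155) and did not pass, nor did it in edgeR (adjusted p = 0.0989) or DESeq2 (adjusted p = 0.112). Without DicerAQP2Cre+ replicate 3 the log2 fold change was 0.28 (limma adjusted p = 0.217). With libraries scaled to equal sums of the entries other than miR-181a-5p it passed (0.78, limma adjusted p = 0.0310), and with equal library totals it was at 0.28 (adjusted p = 0.417). It took 1.79%, 1.96% and 2.36% of the reads other than miR-181a-5p in DicerAQP2Cre+ libraries, and 1.185%, 1.17% and 1.185% in controls. The SD of this share was 0.297 percentage points in DicerAQP2Cre+ libraries and 0.00779 in controls.

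miR-181c-5p and miR-181d-5p, the 5p arms of the pair inside Nanos3, did not pass. miR-181c-5p had 5302, 6957 and 8467 normalized reads in DicerAQP2Cre+ replicates 1 to 3 and 6336, 5333 and 4187 in the controls, and the genotypes overlapped. Its log2 fold change was 0.38 ± 0.24 (1.302-fold, 95% interval 0.906 to 1.87, limma adjusted p = 0.319), and 0.22 without DicerAQP2Cre+ replicate 3, its highest library (adjusted p = 0.478). miR-181d-5p had 1288, 1092 and 1259 in DicerAQP2Cre+ libraries and 897, 1375 and 1170 in controls, with the knockout values inside the control range. Its log2 fold change was 0.10 ± 0.22 (1.07-fold, 95% interval 0.761 to 1.504, limma adjusted p = 0.797), and -0.07 without control replicate 1. That interval leaves room for a change up to 1.504-fold, so equal levels are not shown.

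Among the 3p arms, the minor strands of their duplexes in these libraries, miR-181c-3p was unlike miR-181a-2-3p and miR-181a-1-3p. miR-181c-3p had 193, 292 and 221 normalized reads in DicerAQP2Cre+ replicates 1 to 3, and 139, 142.3 and 123 in control replicates 1 to 3. The genotypes did not overlap. It showed the largest log2 fold change of the 7 members, 0.78 ± 0.24 (1.72-fold, 95% interval 1.181 to 2.50), and did not pass in limma (adjusted p = 0.0786) or edgeR (adjusted p = 0.0591), while DESeq2 called it higher (0.83, adjusted p = 0.0223). Without DicerAQP2Cre+ replicate 3 limma also called it (0.82, adjusted p = 0.0295), as it did with equal sums of the entries other than miR-181a-5p (1.06, adjusted p = 0.0440), but with equal totals it was at 0.57 (adjusted p = 0.141). The DESeq2 call was lost without control replicate 1, 2 or 3 (adjusted p = 0.0990, 0.151 and 0.152) and without DicerAQP2Cre+ replicate 2 (0.61, adjusted p = 0.269).

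miR-181a-2-3p, the arm that reports the chromosome 2 hairpin, had 4429, 5028 and 9222 normalized reads in DicerAQP2Cre+ libraries and 5496, 4927 and 5297 in controls. miR-181a-1-3p, from the chromosome 1 hairpin, had 178, 259 and 462 in DicerAQP2Cre+ libraries and 263, 202 and 228 in controls. In both, DicerAQP2Cre+ replicate 3 alone lay above all controls and the other knockout libraries lay within or below the control range. The log2 fold changes were 0.17 ± 0.27 for miR-181a-2-3p (95% interval 0.748-fold to 1.70-fold, limma adjusted p = 0.726) and 0.27 ± 0.33 for miR-181a-1-3p (0.727-fold to 1.9997-fold, adjusted p = 0.648). Without DicerAQP2Cre+ replicate 3 both turned below 0, to -0.15 and -0.10 (limma adjusted p = 0.572 and 0.816). The coefficient of variation among knockout libraries was 41.9% and 48.8% for these 2 arms and 6.31% for miR-181a-5p. In controls it was 5.51% and 13.2% for the 2 arms and 14.6% for miR-181a-5p.

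By level the members kept the order miR-181a-5p, miR-181b-5p, miR-181c-5p, miR-181a-2-3p, miR-181d-5p, miR-181a-1-3p and miR-181c-3p in the means of both genotypes. In mean normalized reads over all 6 libraries they ranked 1, 17, 46, 48, 89, 156 and 176 of 1081 entries. miR-181c-5p (6909 ± 1583 in DicerAQP2Cre+, 5285 ± 1076 in control) and miR-181a-2-3p (6227 ± 2612 in DicerAQP2Cre+, 5240 ± 289 in control) did not differ beyond their spread. miR-181a-1-3p (299.6 ± 146.1) and miR-181c-3p (235 ± 51.0) overlapped in DicerAQP2Cre+ libraries, where miR-181c-3p was the higher of the pair in replicates 1 and 2. In controls miR-181a-1-3p (231 ± 30.6) was above miR-181c-3p (135 ± 10.4) in each library. All other neighbours in the order were separated by more than their spread.

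Ratios of members within a library are free of any scaling between libraries and were compared for 6 pairs by exact two-sided permutation tests, in which 3 against 3 libraries cannot give a p below 0.1. None of the 6 reached that limit, and in each the genotypes overlapped. For every 100 reads of miR-181a-5p there were 1.01, 0.974 and 1.70 reads of miR-181b-5p in DicerAQP2Cre+ replicates 1 to 3, and 1.06, 1.28 and 1.55 in control replicates 1 to 3. The difference in log2 ratio was -0.11 (exact p = 0.8, adjusted over the 6 ratios 0.8). The Nanos3 pair, miR-181c-5p plus miR-181d-5p, gave 0.183, 0.209 and 0.287 per 100 reads of miR-181a-5p in DicerAQP2Cre+ libraries and 0.263, 0.288 and 0.259 in controls (log2 difference -0.28, exact p = 0.3, adjusted p = 0.6). Replicates 1 and 2 of the knockout lay below all controls, and replicate 3 lay among them. Without replicate 3 the log2 difference was -0.46.

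The balance of the 2 arms of the miR-181a duplex varied most among the DicerAQP2Cre+ libraries. The summed 3p arms were 1 read per 781, 727 and 350 reads of miR-181a-5p in DicerAQP2Cre+ replicates 1 to 3, and 1 per 478, 455 and 374 in control replicates 1 to 3. DicerAQP2Cre+ replicate 3 thus had the most 3p reads per 5p read of all 6 libraries and DicerAQP2Cre+ replicate 1 the fewest. The log2 difference was -0.43 (exact p = 0.4, adjusted p = 0.6), and -0.80 without DicerAQP2Cre+ replicate 3. For the miR-181c hairpin the 3p arm amounted to 3.64%, 4.20% and 2.61% of the 5p arm in DicerAQP2Cre+ libraries and 2.20%, 2.67% and 2.94% in controls (log2 difference 0.40, exact p = 0.3, adjusted p = 0.6), and the log2 difference was 0.59 without DicerAQP2Cre+ replicate 3.

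Among the reads that can be assigned to 1 miR-181a hairpin, which are 3p reads only, those of Mir181a-2 prevailed in every library. The part of each hairpin in the miR-181a-5p reads is not shown by them. miR-181a-1-3p was 4.03%, 5.14% and 5.01% of miR-181a-2-3p in DicerAQP2Cre+ libraries and 4.79%, 4.10% and 4.31% in controls (log2 difference 0.10, exact p = 0.5, adjusted p = 0.6). This ratio had the smallest log2 SD of the 6 in the knockout group, 0.19. miR-181d-5p was 24.3%, 15.7% and 14.9% of miR-181c-5p in DicerAQP2Cre+ libraries and 14.2%, 25.8% and 27.9% in controls (log2 difference -0.28, exact p = 0.5, adjusted p = 0.6), so the balance within that pair varied as much among controls as between genotypes.

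**Figure D3:**
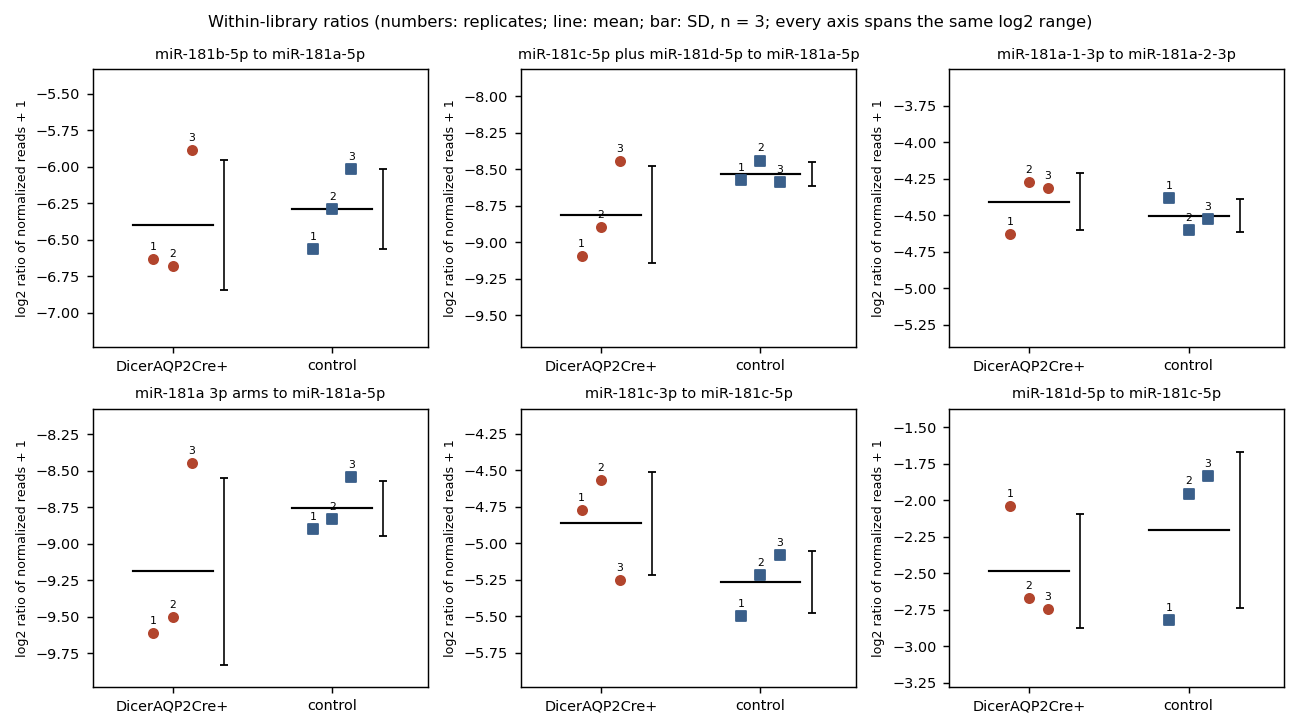
Log2 ratios between members within each library (pseudocount 1 on both terms, every axis spanning the same log2 range), DicerAQP2Cre+ left of control, with the mean as a line and the SD as a bar (n = 3). The genotypes overlap in all 6 ratios, and DicerAQP2Cre+ replicates 1 and 2 lie below all controls for the miR-181a 3p arms to miR-181a-5p.

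As a description over the 6 libraries, members were also compared by the Pearson correlation of log2(value + 1), which takes in the genotype difference. miR-181a-5p was most like miR-181c-3p among the members (r = 0.91), followed by miR-181c-5p (0.69) and miR-181b-5p (0.56), while its r with the miR-181a-2-3p and miR-181a-1-3p arms of its own hairpins was 0.14 and 0.26. Those 2 arms were close to each other (r = 0.97) and to miR-181b-5p (0.81 and 0.78). Outside the family and the marker lists, the 5 tested entries most like miR-181a-5p were miR-532-3p (r = 0.99), miR-375-3p (0.99), miR-483-5p (0.97), miR-341-3p (0.97) and miR-7688-5p (0.96). They held ranks 1, 2, 4, 5 and 6 of all tested entries. The skipped rank fell to miR-145a-5p of the stromal list, ahead of every member. It had 4764, 4070 and 3238 normalized reads in DicerAQP2Cre+ libraries and 2550, 1769 and 1456 in controls. miR-375-3p, known from pancreatic islets, had 882, 1009 and 879 normalized reads in DicerAQP2Cre+ libraries and 589, 549 and 417 in controls, and rose in DicerAQP2Cre+ libraries (log2 fold change 0.84 ± 0.22, limma adjusted p = 0.0340). miR-532-3p had 829, 847 and 782 in DicerAQP2Cre+ libraries and 694, 546 and 489 in controls without passing (0.52 ± 0.21, limma adjusted p = 0.145). miR-341-3p (1.54 ± 0.32, limma adjusted p = 0.0162) and miR-7688-5p (1.43 ± 0.28, adjusted p = 0.0148) also rose. miR-483-5p did not pass (1.21 ± 0.47, limma adjusted p = 0.130). These entries were picked by likeness to a profile that holds the genotype difference, so their own differences are partly set by that choice.

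Because the family is known from leukocytes and endothelium, markers of other cell types are given beside it. Of 7 leukocyte miRNAs limma called 0 of the 6 tested, and their summed normalized reads were 17293 to 40083 in DicerAQP2Cre+ libraries and 13559 to 36777 in controls, nearly all from miR-150-5p. miR-150-5p, a lymphocyte miRNA, was highest in DicerAQP2Cre+ replicate 3 (38097) and control replicate 1 (35203) and lay between 12156 and 19416 in the other 4 libraries. miR-142a-3p, a general leukocyte miRNA, had 1 read in DicerAQP2Cre+ replicate 1 and 0 in the other 5 libraries, where 0 reads allow up to 3 reads, or 2.31 to 5.88 normalized reads. miR-342-3p averaged 1228 ± 199.1 in DicerAQP2Cre+ libraries and 823 ± 170 in controls, a log2 fold change of 0.58 that missed the threshold (limma adjusted p = 0.130). miR-155-5p, induced in activated leukocytes, lay the other way, at 112, 141.1 and 407 in DicerAQP2Cre+ libraries and 468, 551 and 536 in controls, without overlap. Its log2 fold change of -1.47 did not pass in limma (adjusted p = 0.0512) or edgeR (adjusted p = 0.0822), and DESeq2 called it lower (adjusted p = 0.0353). Endothelial miR-126a-3p and miR-126a-5p summed to 830 to 1245 in DicerAQP2Cre+ libraries and 961 to 1229 in controls, 0 of 2 called.

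Of 5 epithelial miR-200 family arms all 5 fell (limma adjusted p from 0.0126 to 0.0188), among them miR-200b-3p (4236 ± 1625 in DicerAQP2Cre+, 8698 ± 172 in control) and miR-200c-3p (2634 ± 423 in DicerAQP2Cre+, 4869 ± 428.6 in control). Of 5 stromal entries 2 rose, miR-145a-5p (limma adjusted p = 0.0196) and miR-214-3p (adjusted p = 0.0148), and the list summed to 27621 to 39941 in DicerAQP2Cre+ libraries and 23291 to 24539 in controls, led by miR-143-3p. Of 4 erythroid entries 0 of the 2 tested passed, the most abundant being the joint entry of miR-486a-5p and miR-486b-5p (81120 ± 16475 in DicerAQP2Cre+, 108634 ± 33727 in control), followed by miR-451a. Of 3 neural entries 1 of the 2 tested fell, miR-9-5p (limma adjusted p = 0.0126). The other, miR-128-3p, averaged 50.1 ± 12.9 in DicerAQP2Cre+ libraries and 51.9 ± 7.44 in controls (limma adjusted p = 0.883). miR-124-3p had 0 reads in 5 libraries. The most abundant stromal entry, miR-143-3p, missed the threshold in limma (0.31 on the log2 scale, adjusted p = 0.315). The part of these lists in the miR-181 values was not tested.

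**Figure D4:**
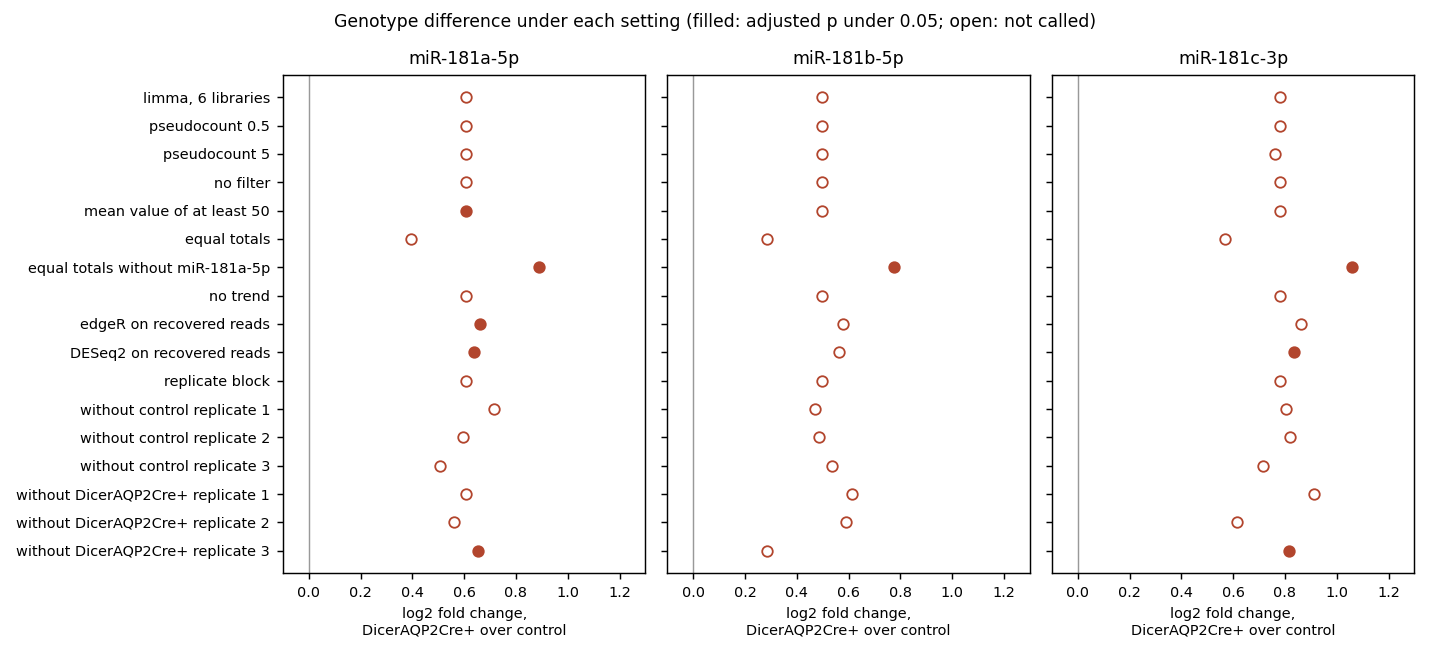
Log2 fold change, DicerAQP2Cre+ over control, of miR-181a-5p, miR-181b-5p and miR-181c-3p in limma with all 6 libraries and under 16 alternatives, which leave out single libraries in limma only, with filled points where the adjusted p was under 0.05. All points lie above 0, and 5 of these alternatives called miR-181a-5p, 1 called miR-181b-5p and 3 called miR-181c-3p.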

How the data were processed

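Per the labels' protocols, TruSeq small-RNA libraries were made from inner medulla RNA. The authors deposited 1 table of signal values. Its values are whole reads scaled by a factor for each library, and the submitters' processing notes list DESeq2, FastQC 0.11.3 and the build mm9. Sources used here name no aligner or counter. Reads were recovered by dividing each column by its smallest value above 0, after which 100% of values were whole within 0.01 read. Entries with a mean of at least 5 were tested (461, leaving out 620), two-sided, by limma 3.58.1 in R 4.3.3 with the trend option and a pseudocount of 1. On that scale the change of low entries is understated. The alternatives included edgeR 4.0.16 and DESeq2 1.42.0 on the recovered reads. These tests were tested on simulated data. Ratios were tested with scipy 1.17.1.

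The design names 3 separate mice per genotype. Depth was 2934851 to 7614853 reads. Members, lists and ratios were chosen with earlier results of these data known. Named entries are all members, the 5 most like miR-181a-5p outside the family and the marker lists, the 4 next by level and the 2 most abundant of each marker list. Any other was chosen after its values were seen.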

Additional observations from a re-analysis of the deposited data

How the results depend on the processing

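miR-181a-5p kept a log2 fold change above 0 in 16 alternatives with limma, edgeR or DESeq2 (0.39 to 0.89). It passed with edgeR (0.66), DESeq2 (0.64), equal sums of the other entries (0.89) and a mean filter of 50 (0.61, limma adjusted p = 0.0297), and had an adjusted p of 0.435 with no filter. Leaving out 1 library gave 0.51 to 0.72 in limma, 0.57 to 0.75 in edgeR and 0.55 to 0.73 in DESeq2. Without DicerAQP2Cre+ replicate 3 edgeR gave 0.74 and DESeq2 gave 0.66. Same-numbered libraries correlated at -0.06, 0.01 and 0.06 in their deviations from group means, beside -0.09 to 0.10 for libraries with different numbers. No pairing by number was seen, but 3 libraries per genotype cannot exclude one. The replicate block called 32 entries against 39 (miR-181a-5p 0.61, adjusted p = 0.112). Entries called over the whole table numbered 62 with equal totals, 18 without a trend, 60 by DESeq2 and 0 to 105 with 1 library left out. The count was 15 without DicerAQP2Cre+ replicate 2, 105 without its replicate 3 and 0 without control replicate 2 or 3. For those 0 calls by limma, 83 and 96 entries had an unadjusted p under 0.05, edgeR called 0 and 0, and DESeq2 called 29 and 37. With equal totals miR-181a-2-3p was at -0.040 and miR-181d-5p at -0.11. With 1 library left out, miR-181a-2-3p ranged from -0.15 to 0.38, miR-181a-1-3p from -0.097 to 0.59 and miR-181d-5p from -0.068 to 0.24. The log2 ratio of miR-181b-5p to miR-181a-5p then ranged from -0.37 to 0.031, while the other 5 kept their sign but not their size: miR-181c-5p plus miR-181d-5p to miR-181a-5p -0.46 (without DicerAQP2Cre+ replicate 3) to -0.14 (without its replicate 1), the miR-181a 3p arms to miR-181a-5p -0.80 to -0.22 (the same libraries), miR-181a-1-3p to miR-181a-2-3p 0.032 to 0.21 (without DicerAQP2Cre+ replicates 2 and 1), miR-181c-3p to miR-181c-5p 0.25 to 0.59 (without DicerAQP2Cre+ replicates 2 and 3), and miR-181d-5p to miR-181c-5p -0.59 to -0.10 (without control replicates 1 and 3). The share difference was 12.7 to 17.4 percentage points for miR-181a-5p. For the other 6 members it was 0.163 points of all reads (0.0107 without DicerAQP2Cre+ replicate 3, 0.249 without its replicate 1) and 1.08 points of reads other than miR-181a-5p. The causes were not tested.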

Other observations

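The table holds 3 further miR-181 arms that the rule did not take, named here after their values were seen. miR-181d-3p, the partner of miR-181d-5p, had 4, 1 and 0 recovered reads in DicerAQP2Cre+ replicates 1 to 3 and 9, 9 and 16 in control replicates 1 to 3, or 2.96, 1.96 and 0 normalized reads against 6.92, 7.07 and 15.5. Its genotypes did not overlap, and its log2 fold change was -2.16 ± 0.65 (limma adjusted p = 0.0672, edgeR adjusted p = 0.0773), which did not pass. Its mean was 1.64 normalized reads in DicerAQP2Cre+ libraries and 9.83 in controls. It thus passed the filter, a mean of at least 5, only through the control libraries. The fit of miR-181d-3p is therefore given as a description and is no support for a difference. DESeq2 gave no adjusted p for it. It lay opposite in sign to miR-181d-5p, the other arm of the same hairpin, at 0.10, and to miR-181c-3p from the neighbouring hairpin, at 0.78. The fitted value of so few reads depends on the pseudocount. miR-181b-1-3p had 5, 1 and 11 reads in DicerAQP2Cre+ libraries and 2, 4 and 4 in controls. miR-181b-2-3p had 1, 0 and 1 against 0 in each control library. With so few reads both fell below the filter and were not tested.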
